A study of Homo sapiens with 6 samples.

Results

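The 10 genes described here are transcription factors and effectors of the integrated stress response. The factors are ATF4, ATF5, ATF3, DDIT3 (whose protein is CHOP), CEBPG and CEBPB, and the effectors are TRIB3, CHAC1, PPP1R15A (GADD34) and EIF4EBP1 (4E-BP1). They were chosen by gene symbol, with their fold changes in this same comparison already known, so their values are given as a description and not as a test. All 10 were found among the 28278 gene rows of each library, and all 10 passed the filter on low counts, which left 15131 tested genes. RKO cells, an established human colon carcinoma line described as poorly differentiated, were infected with lentivirus that expressed a short hairpin RNA, either against TRIM21 (shTRIM21, 3 libraries) or scrambled (shControl, 3 libraries). Both arms were selected with puromycin at 5 µg/ml from 36 h after infection for 2 to 3 weeks, so the controls share the vector and the drug. Total RNA was sequenced after removal of ribosomal RNA. The labels speak of biological replicates without naming separate infections, so p-values measure the spread between these libraries, which may be technical. The labels do not tell how many hairpins or clones each arm held, the hairpin sequences were not used here, and 1 label field calls the source mouse tissue although organism, line and symbols are human.

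The integrated stress response starts when a kinase (PERK, GCN2, PKR or HRI) phosphorylates the initiation factor eIF2, which slows most translation but favours the ATF4 mRNA, whose upstream reading frames otherwise keep ribosomes from its coding sequence. ATF4, a basic leucine zipper (bZIP) protein, pairs with C/EBP and other bZIP partners and turns on genes for amino acid synthesis, import and tRNA charging, and further factors such as ATF3, ATF5 and CHOP. The response also holds its own brakes: GADD34 brings a phosphatase back to eIF2, and TRIB3 is a pseudokinase that can bind ATF4, CHOP and AKT. In cancer cells, growth signalling through mTORC1 can raise ATF4 and its targets without a stress, and 4E-BP1, a repressor of cap-dependent translation, is both an ATF4 target and an mTORC1 substrate. ATF4 output is set largely by translation, so mRNA counts show only part of it.

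Total counts ranged from 33499827 to 38051662 in shTRIM21 and from 33829727 to 44466137 in shControl, and without ribosomal RNA rows all 6 libraries held between 27808151 and 29100459. Ribosomal RNA rows took 16.99% to 23.5% of each shTRIM21 library, against 14.7%, 31.0% and 36.9% of shControl replicates 2, 1 and 3. Levels below are CPM, that is counts relative to library size, after TMM scaling. TRIM21, the targeted gene, stood at 7.97, 6.92 and 7.85 CPM in shTRIM21 replicates 1 to 3 and at 12.16, 11.45 and 9.47 CPM in shControl. Every shTRIM21 library was below every shControl library, and TRIM21 fell by 0.54 on the log2 scale (SE 0.12, edgeR adjusted p = 0.00424), which is 31.3% lower. With library sizes alone TRIM21 was at -0.34 and no longer called. Of 12 colon epithelial markers, KRT8, KRT18, KRT19, EPCAM, CDX2 and VIL1 were present (CDX2 at 20.7 to 23.8 CPM). CDX1 and LGALS4 were listed at 0 in every library, and CDH17 and MUC2 did not pass 0.2 CPM. HYOU1, PCK2 and SESN2, from lists used below, were listed at 0 in every library as well. A 0, here and below, does not tell an unexpressed gene from one that was not counted. The summed epithelial markers, mostly keratins, ranged from 4639 to 4881 CPM in shTRIM21 and from 5971 to 6637 CPM in shControl. That sum is carried by KRT8, KRT18 and KRT19: of the 8 epithelial markers tested these 3 were lower, CDH1 was higher and 4 were not called, with a median log2 fold change of -0.029. Summed fibroblast markers ranged from 10.5 to 11.1 CPM in shTRIM21 and from 6.15 to 9.19 CPM in shControl, nearly all of it COL1A1, with DCN, LUM and FAP at 0. Summed immune markers ranged from 6.18 to 6.85 CPM and from 7.34 to 8.69 CPM, nearly all of it CD68, with CD3E, CD3D and MS4A1 at 0. Endothelial markers summed to at most 0.773 CPM. The part of these marker levels in the results below was not tested.

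Of the 10 genes, 9 were called lower in shTRIM21 (edgeR's quasi-likelihood test, with an adjusted p under 0.05 by Benjamini and Hochberg over all tested genes) and CEBPB was not called. Over all tested genes 20.8% were called, 11% lower and 9.77% higher. These shares stand beside the count for reference only, since the genes were chosen on this comparison. None of the 10 was called higher, by edgeR, by DESeq2 or by limma-voom: the count was 0 with each, and 0 at an unadjusted p under 0.05. In the same 9 genes all shTRIM21 libraries lay below all shControl libraries in CPM, as they did for 19% of all tested genes. The median log2 fold change of the 10 genes was -0.45, and that of all tested genes was 0.0054. Summed over the 10 genes, the libraries held 732.5, 720.8 and 700.6 CPM in shTRIM21 and 964.7, 1027.9 and 1025.0 CPM in shControl. ATF4 made up more than any other gene of this sum, and without it the sums were 307.7, 307.1 and 304.4 CPM against 386.8, 426.0 and 419.2 CPM. In bulk RNA, fewer cells that carry a transcript and less of it per cell cannot be told apart.

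**Figure D1:**
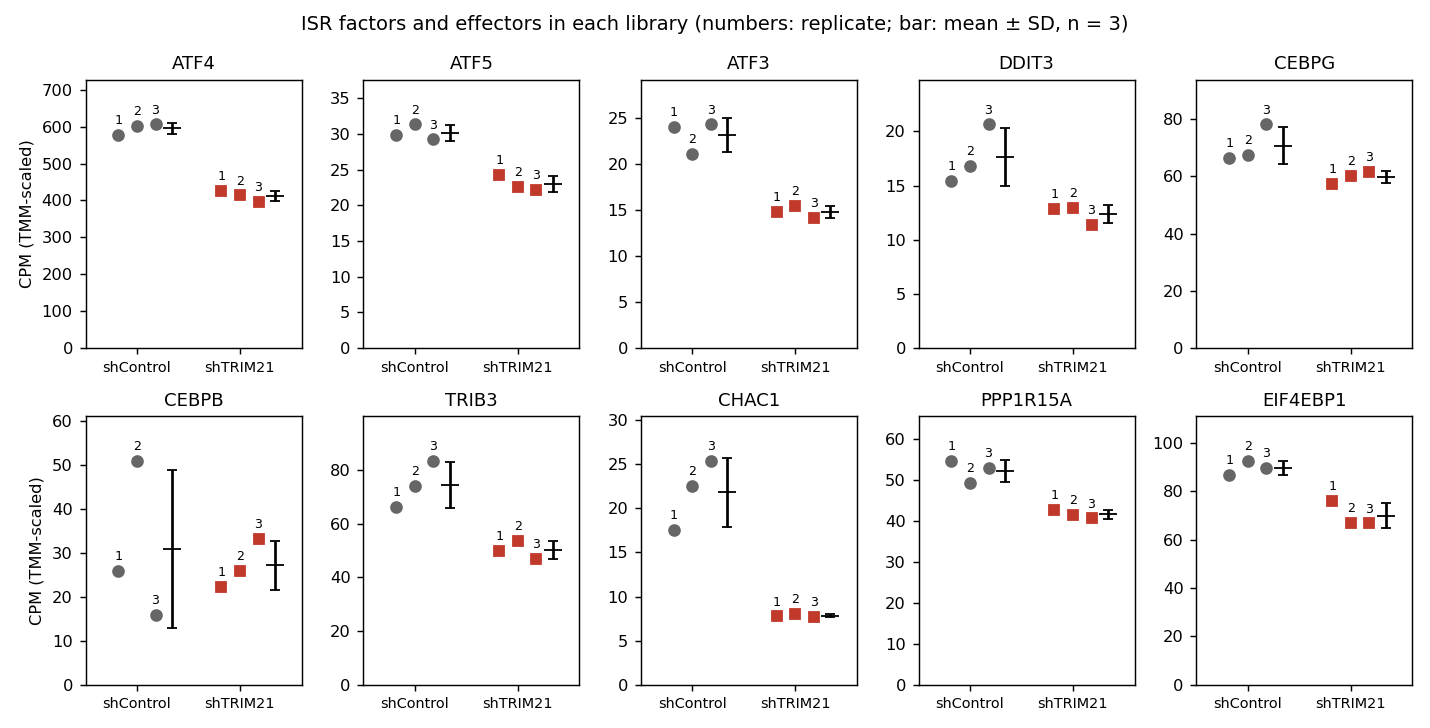
Level of each of the 10 genes in CPM (TMM-scaled, each axis from 0) in the 3 shControl and 3 shTRIM21 libraries, numbered by replicate, with the mean and SD of 3 libraries. The groups do not overlap for 9 genes, CHAC1 shows the widest gap in fold, and CEBPB spreads from 15.95 to 51.0 CPM within shControl.

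The promoter windows of these genes were read for the elements that ATF4 and its partners are known to bind, because genes of a shared response can be compared by them. RefSeq windows (GRCh38.p14, 250 bases before to 50 after a start site) were found for 9 of the 10 genes, 18 windows in all, and none for EIF4EBP1. Motifs were searched on both strands. TGATGNAA, the core shared by C/EBP-ATF composite elements, occurred in 3 of the 18 windows, 1 each for CHAC1, CEBPG and ATF3, and in 3.62% of all 35116 windows. TGACGTCA, the palindromic cyclic AMP response element, occurred in 1 of the 18 windows, that of PPP1R15A, and in 1.85% of all windows. In the following stretches, read 5′ to 3′ along the gene's strand, capitals mark the match: TGATGNAA or its reverse complement for CHAC1 (chr15:40953251-40953280, plus strand), CEBPG (chr19:33374023-33374112, plus strand) and ATF3 (chr1:212565177-212565266, plus strand), TGACGTCA for PPP1R15A (chr19:48872301-48872390, plus strand), and CCAAT or its reverse complement for DDIT3 (chr12:57520545-57520634, minus strand).
CHAC1: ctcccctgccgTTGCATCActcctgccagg
CEBPG: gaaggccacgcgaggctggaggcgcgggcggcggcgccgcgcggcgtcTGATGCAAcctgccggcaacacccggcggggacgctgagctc
ATF3: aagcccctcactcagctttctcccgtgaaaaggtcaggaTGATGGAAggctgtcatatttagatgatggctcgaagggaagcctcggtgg
PPP1R15A: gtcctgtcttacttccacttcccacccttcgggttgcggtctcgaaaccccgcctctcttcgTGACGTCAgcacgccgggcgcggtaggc
DDIT3: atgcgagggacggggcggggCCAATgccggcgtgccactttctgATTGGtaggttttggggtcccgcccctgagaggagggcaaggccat
Counted with -1 as the base just before the start site, the match begins at -209 for CHAC1, at -42 of the second CEBPG start, at -191 for ATF3 and at -58 for PPP1R15A. The CHAC1 and CEBPG letters are the same element on opposite strands, and the ATF3 element differs from them at the free base of the motif. CCAAT, the box bound by NF-Y, was found in 7 of the 18 windows, of 5 genes (ATF3, CEBPB, CEBPG, CHAC1 and DDIT3), and in 34.6% of all windows. TGANTCA, the AP-1 element, was found in 3 of the 18, of ATF5 and DDIT3, and in 7.71% of all windows. TTGCGCAA, the C/EBP palindrome, was in 0 of the 18 and in 0.151% of all windows. Some windows of a gene overlap, so these are counts of windows and not of separate sites. The DDIT3 windows with a match share the same TGANTCA and CCAAT sites, and the CEBPB windows with a match share the same CCAAT site. The windows of ATF4 and TRIB3 held none of the 5 motifs, which says only that these letters are not in those windows.

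ATF4 (chr22:39520559-39522686) is the central factor of the response. It stood at 424.9, 413.7 and 396.2 CPM in shTRIM21 replicates 1 to 3 and at 577.8, 601.9 and 605.7 CPM in shControl, from 14998 to 16205 and from 21811 to 22125 counts. The 2 groups were tight and far apart: the highest shTRIM21 library was well below the lowest shControl library. Mean levels were 411.6 ± 14.4 CPM in shTRIM21 and 595.2 ± 15.1 CPM in shControl (SD, n = 3 each). The log2 fold change was -0.53 (SE 0.053, 95% interval -0.64 to -0.42), or 30.8% lower. Only 175 of the tested genes had a higher mean CPM over the 6 libraries than ATF4, and 282 genes that were called lower had a larger fall.

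ATF5 (chr19:49928906-49933935) is a bZIP factor that, like ATF4, is translated under eIF2 phosphorylation. Its levels were 24.3, 22.5 and 22.2 CPM in shTRIM21 and 29.9, 31.3 and 29.3 CPM in shControl. The groups did not overlap, and the log2 fold change was -0.39 (SE 0.072). The gene overlaps NUP62, IL4I1 and MIR4751 in RefSeq, and no source used here tells whether counting used strand. NUP62 was not called (155.6 ± 10.1 CPM in shTRIM21 and 160.7 ± 4.69 CPM in shControl, log2 fold change -0.05), and IL4I1 stayed between 2.56 and 3.92 CPM in all libraries.

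ATF3 (chr1:212565407-212620777) is a stress-induced bZIP factor that often acts as a repressor. It was read at 14.7, 15.4 and 14.2 CPM in shTRIM21 and at 24.0, 21.0 and 24.3 CPM in shControl, on 536 to 907 counts. All 3 shTRIM21 libraries lay below all 3 controls. Its log2 fold change of -0.65 (SE 0.085), 1.56-fold lower, was the largest fall among the 6 factors.

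DDIT3 (chr12:57516588-57520517, minus strand) encodes CHOP, the bZIP factor linked to death after prolonged stress. Libraries of shTRIM21 gave 12.8, 12.9 and 11.4 CPM and those of shControl 15.4, 16.8 and 20.6 CPM. The groups did not overlap but the gap was small, since shControl replicate 1 was close to the shTRIM21 libraries and replicate 3 stood highest. The log2 fold change was -0.51 (SE 0.11), and the SD within shControl was 2.69 CPM against 0.857 CPM in shTRIM21. DDIT3 overlaps MARS1, the methionyl-tRNA synthetase gene and itself an ATF4 target, which stood at 150.0 to 151.5 CPM in shTRIM21 and 209.6 to 218.9 CPM in shControl. MARS1 fell by 0.51 on the log2 scale (SE 0.049, edgeR adjusted p = 4.00e-06), and how far reads of the 2 genes were told apart was not tested.

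CEBPG (chr19:33373709-33382686) encodes C/EBPγ, a dimer partner of ATF4 at composite elements, and its second start carries the element shown above. Its levels were 57.3, 60.1 and 61.5 CPM in shTRIM21 and 66.3, 67.6 and 78.1 CPM in shControl. The groups did not overlap, but shControl replicates 1 and 2 were near the shTRIM21 libraries and replicate 3 was set apart above them. The log2 fold change was -0.24 (SE 0.068), 1.18-fold lower, the smallest among the 9 called genes. The call was lost without shTRIM21 replicate 1 or 2 or shControl replicate 3 (values from -0.26 to -0.17), and with shControl replicates 1 and 3 both left out, where the value was -0.19.

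CEBPB (chr20:50190583-50192690) encodes C/EBPβ, a bZIP factor of stress and inflammation that pairs with ATF4 and CHOP. It was the exception among the 10: 22.4, 26.0 and 33.2 CPM in shTRIM21 and 26.0, 51.0 and 15.95 CPM in shControl. Both the highest and the lowest of the 6 libraries were controls, so the shTRIM21 range lay inside the shControl range. The log2 fold change was -0.19 (SE 0.27, 95% interval -0.77 to 0.39), an interval that holds both the fall of ATF4 and a rise. Its coefficient of variation was 58.2% in shControl and 20.2% in shTRIM21. Without shControl replicate 2 the value turned to 0.37, and with shControl replicates 1 and 3 left out it was -0.91 and called, so the choice of control libraries set its direction.

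The antisense gene CEBPB-AS1, which overlaps CEBPB, followed the same order at its extremes, with 19.8 CPM in shControl replicate 2 and 6.38 CPM in shControl replicate 3. Ordered by the share of counts in ribosomal RNA rows, the libraries gave CEBPB at 51.0 CPM (14.7%, shControl replicate 2), 33.2 CPM (16.99%, shTRIM21 replicate 3), 22.4 CPM (19.3%, shTRIM21 replicate 1), 26.0 CPM (23.5%, shTRIM21 replicate 2), 25.96 CPM (31.0%, shControl replicate 1) and 15.95 CPM (36.9%, shControl replicate 3). The library with the smallest ribosomal share had the most CEBPB and the one with the largest share the least. The part of the ribosomal share in this spread was not tested, and without strand reads of CEBPB and CEBPB-AS1 may be counted together.

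**Figure D2:**
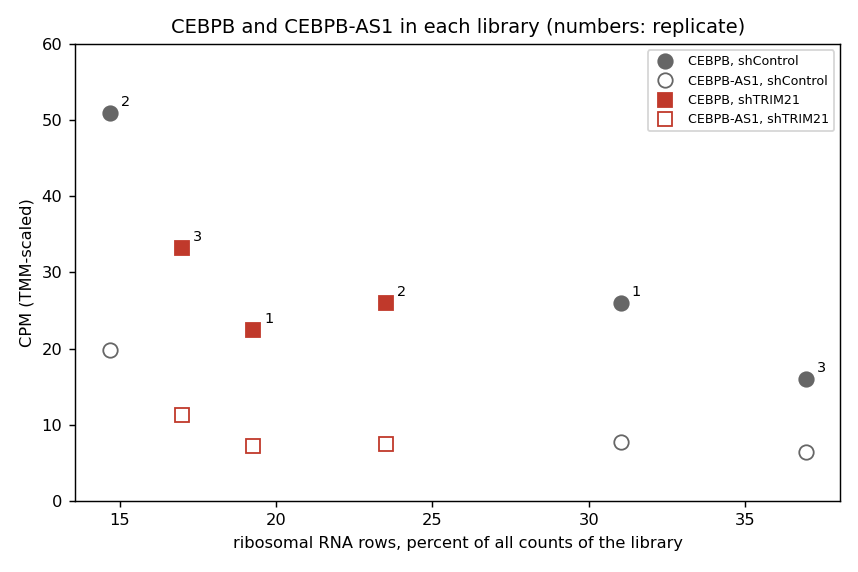
CEBPB (filled) and CEBPB-AS1 (open) in CPM (TMM-scaled) against the share of all counts in ribosomal RNA rows, in percent, for each library (circles shControl, squares shTRIM21, numbered by replicate). CEBPB is at 51.0 CPM at the smallest share and at 15.95 CPM at the largest, both shControl libraries.

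CHAC1 (chr15:40953471-40956512) encodes a γ-glutamylcyclotransferase that degrades glutathione and is a strong target of ATF4. It stood at 7.76, 8.02 and 7.71 CPM in shTRIM21 and at 17.6, 22.5 and 25.3 CPM in shControl, on 291 to 314 and 664 to 918 counts. The 3 shTRIM21 libraries were nearly level, with a coefficient of variation of 2.09%, while the controls varied by 17.97% and lay all above them. Mean levels were 7.83 ± 0.164 CPM and 21.8 ± 3.92 CPM (SD, n = 3 each). The log2 fold change was -1.48 (SE 0.12, 95% interval -1.73 to -1.22), or 2.78-fold lower. Only 34 of the 1667 genes called lower had a larger fall, and 89 were at least 2-fold lower.

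TRIB3 (chr20:380760-397559), the pseudokinase, gave 49.8, 53.6 and 47.0 CPM in shTRIM21 and 66.2, 74.1 and 83.3 CPM in shControl. The groups did not overlap, and shControl replicate 3 was again the highest library. Its log2 fold change was -0.57 (SE 0.079), or 1.49-fold lower, close to that of ATF4 within the errors of both.

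PPP1R15A (chr19:48872421-48876058), the stress-induced partner of the eIF2 phosphatase, was at 42.6, 41.5 and 40.6 CPM in shTRIM21 and at 54.5, 49.2 and 52.8 CPM in shControl. The groups did not overlap, and the log2 fold change was -0.33 (SE 0.062). With shControl replicates 1 and 3 left out it was -0.25 and no longer called. EIF4EBP1, on chromosome 8, was at 75.9, 67.1 and 66.7 CPM in shTRIM21 and at 86.9, 92.4 and 89.6 CPM in shControl. Here shTRIM21 replicate 1 was the highest of its group but still below every control, and the log2 fold change was -0.36 (SE 0.062).

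Across the 10 genes, shControl replicate 3 was the highest control for 6 (ATF4, ATF3, DDIT3, TRIB3, CHAC1 and CEBPG), replicate 2 for 3 (ATF5, CEBPB and EIF4EBP1) and replicate 1 for PPP1R15A alone. In shTRIM21, replicate 3 was the lowest library for 8 genes and the highest for CEBPB and CEBPG. Replicate 3 of shControl was also the library with the largest ribosomal share (36.9%), and the part of that share in its high values was not tested. The spread within shControl was not even across genes. From the lowest to the highest control, CHAC1 ran from 17.6 to 25.3 CPM and DDIT3 from 15.4 to 20.6 CPM, whereas ATF4 ran only from 577.8 to 605.7 CPM and ATF5 from 29.3 to 31.3 CPM.

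These calls depended on the use of scaling factors. The same 9 genes were called lower with RLE factors (median of the 10 genes -0.45) and with upper-quartile factors (-0.41). They were also called lower with TMM factors after ribosomal RNA rows were left out (-0.46). With library sizes alone, which count ribosomal RNA reads into the total, the median of all tested genes moved from 0.0054 to 0.22, and all genes then split into 1831 higher and 138 lower calls, against 1479 and 1667 with TMM and 1899 and 1161 with upper-quartile factors. The 10 genes moved with it: their median was -0.24, only CHAC1 was still called lower (-1.26), and the 9 others stayed below 0, from -0.42 for ATF3 and -0.32 for ATF4 to -0.024 for CEBPG. Relative to the median of all genes, the median of the 10 was -0.46 both with TMM and with library sizes alone.

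**Figure D3:**
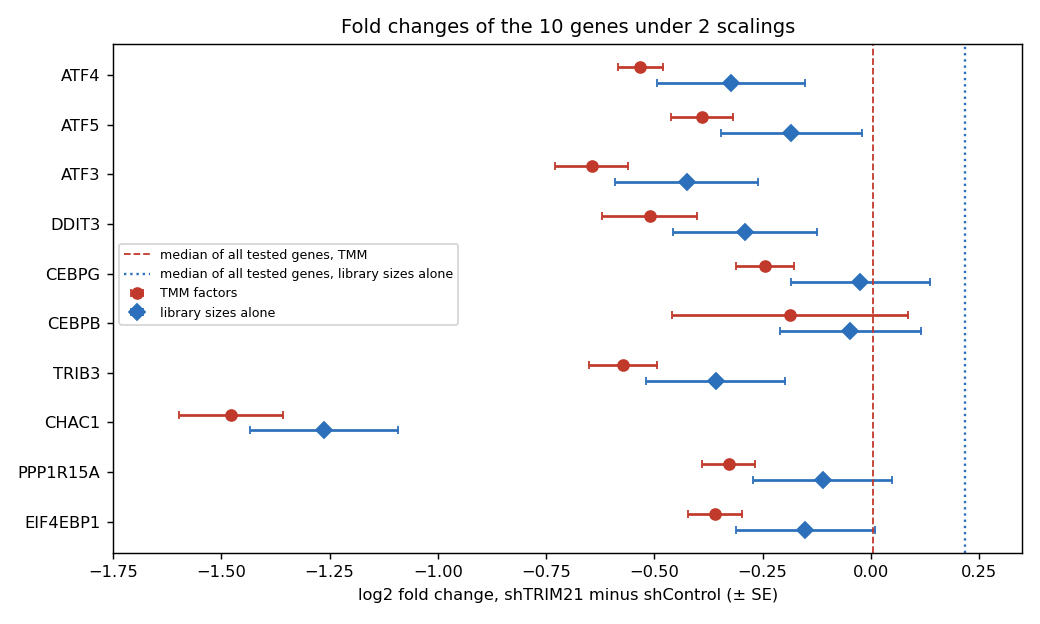
Log2 fold change of each of the 10 genes (shTRIM21 minus shControl, bars ± SE) with TMM factors (circles) and with library sizes alone (diamonds), with the median of all tested genes under each scaling as a vertical line. Both sets of points lie left of their own line, by a median of -0.46, and CHAC1 lies farthest from it.

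Levels can be compared between genes only per length, here as CPM per kb of merged GENCODE exon. In shControl, ATF4 was highest at 236.7 ± 6.02 CPM per kb (SD, n = 3), then EIF4EBP1 at 87.9 ± 2.72, TRIB3 at 25.7 ± 2.95 and PPP1R15A at 21.9 ± 1.16 CPM per kb. CEBPG (16.02), CEBPB (15.8), DDIT3 (13.5), ATF5 (11.7), CHAC1 (10.6) and ATF3 (9.11 CPM per kb) followed, and each of these overlapped the next over its 3 libraries. TRIB3 and PPP1R15A overlapped as well, so only ATF4, EIF4EBP1 and the step from PPP1R15A to CEBPG were set apart from the next gene. That step did not hold for CEBPB, whose shControl libraries ran from 8.16 to 26.1 CPM per kb. Its range spanned that of PPP1R15A (20.7 to 22.9) and reached into that of TRIB3 (22.8 to 28.7 CPM per kb). In shTRIM21, ATF4 (163.7) and EIF4EBP1 (68.5 CPM per kb) again led. PPP1R15A (17.5) and TRIB3 (17.3) overlapped, and so did TRIB3 and CEBPB (13.9), CEBPB and CEBPG (13.5), and DDIT3 (9.47) and ATF5 (8.94 CPM per kb). CHAC1 and ATF3 changed places at the bottom: ATF3 was at 5.82 ± 0.248 and CHAC1 at 3.80 ± 0.0796 CPM per kb in shTRIM21, without overlap, whereas the 2 overlapped in shControl.

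**Figure D4:**
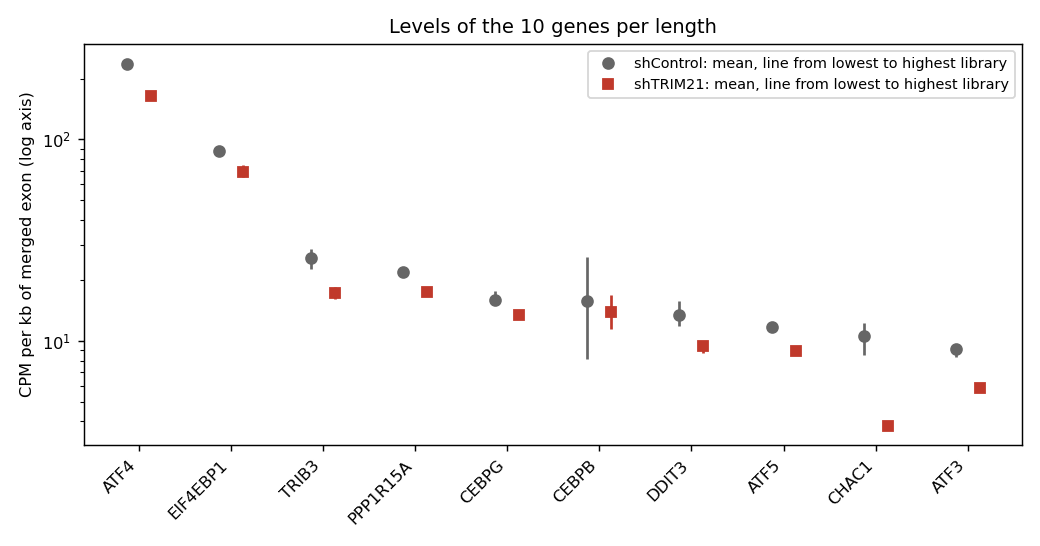
Level of the 10 genes in CPM per kb of merged exon on a log axis, in shControl (circles) and shTRIM21 (squares), as the mean of 3 libraries with a line from the lowest to the highest. ATF4 and EIF4EBP1 lie above the others in both groups, and CHAC1 drops from 10.6 to 3.80 CPM per kb, below ATF3.

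The genes whose profile over the 6 libraries was most like that of ATF4 were found by the root mean square difference of centred log2 CPM. The comparison covered 9205 other genes whose mean reached 10 CPM. Pseudogenes, antisense symbols and symbols beginning with LINC, LOC, MIR, SNOR, RNA or RN7 had been left out. The nearest were WWTR1 (0.030, the TAZ coactivator gene), MARS1 (0.035), ACTB (0.035, cytoplasmic β-actin), CTU2 (0.038, a tRNA thiolation enzyme gene) and DAP (0.039). They shared both the size of the difference and the small spread: WWTR1 was at 56.6 ± 1.23 CPM in shTRIM21 and 80.5 ± 0.956 CPM in shControl. ATF5 was nearest among the other 9 genes of the response (0.082, with 109 other genes closer), followed by TRIB3 (0.091), EIF4EBP1 (0.096), ATF3 (0.098), DDIT3 (0.11), PPP1R15A (0.12) and CEBPG (0.17). CHAC1 (0.48) and CEBPB (0.58) were farther from ATF4 than most genes compared, CHAC1 by the size of its fall and CEBPB by its spread. The likeness was taken over the same 6 libraries that gave the fold changes, so it is a description.

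The lists that follow were written from textbook knowledge with earlier results of these data known, and each count stands beside the 11% of tested genes called lower and the 9.77% called higher. Of the called genes named from these lists, EIF4EBP2, JDP2, MAFF, DBP, TEF, BATF2, PSAT1, SLC7A11, ATG12, KLHL24, PMAIP1, ERO1A, HSP90B1, EIF4E3 and EGLN3 were also called with library sizes alone, and the others were not. For the lists outside the ATF4 targets, that scaling gave 1 lower and 1 higher among the paralogs and among the CHOP-linked genes. It gave 0 lower and 1 higher among the IRE1 and ATF6 genes and among the turnover genes. Among the cap-binding and mTORC1 genes it gave 0 lower and 2 higher. The lists on eIF2 kinases, on eIF2 and related factors, and on mitochondrial genes had 0 lower and 0 higher. With shControl replicates 1 and 3 both left out, EIF2AK2, PPP1CC, CHAC2, ALDH18A1, GDF15, KLHL24, EIF4A2, KEAP1 and EGLN3 were not called. Upstream of ATF4, 10 genes for eIF2 kinases and their regulators were tested. Of these, IMPACT (0.083) and DNAJC3 (-0.11) encode inhibitors and were not called. With edgeR 0 were higher, and 0 also with DESeq2, with limma-voom and at an unadjusted p under 0.05. The median of the 10 was -0.012, and 1 was lower. The 1 was EIF2AK2, the gene of PKR, which fell by 0.20 on the log2 scale (SE 0.055, edgeR adjusted p = 0.0192), but stood at 0.0078 with library sizes alone, where the median of all genes was 0.22, and lost its call with upper-quartile factors and without shTRIM21 replicate 1 or 2 or shControl replicate 1 (-0.21 to -0.18). EIF2AK1 (HRI) was at 0.071, EIF2AK3 (PERK) at -0.093 and EIF2AK4 (GCN2) at -0.026 on the log2 scale, none of them called. DELE1 (0.11) and OMA1 (0.16), which relay mitochondrial stress to HRI, and GCN1 (-0.13), the ribosome-bound activator of GCN2, were not called either. A further list of 16 tested genes held subunits of eIF2, eIF2B and the eIF2 phosphatase, and the separate factors EIF2A, EIF2D, DENR and MCTS1. In it the catalytic subunit gene PPP1CA fell by 0.23 on the log2 scale (SE 0.052, edgeR adjusted p = 0.00575). PPP1CC rose by 0.16 (SE 0.050, edgeR adjusted p = 0.0357), and 14 were not called. The call of PPP1CC was lost when any library but shTRIM21 replicate 3 was left out (0.13 to 0.17), with the replicate block and when rarely counted genes were kept in.

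Paralogs of the 10 genes went separate ways. Of 9 tested, 3 were lower and 1 higher, with a median of -0.12. JDP2, the closest relative of ATF3, was at 12.5, 13.2 and 13.3 CPM in shTRIM21 and at 21.3, 21.7 and 24.1 CPM in shControl, and fell by 0.78 on the log2 scale (SE 0.085, edgeR adjusted p = 1.52e-05). CHAC2, the constitutive relative of CHAC1, fell by 0.38 (SE 0.11, edgeR adjusted p = 0.0284) and CEBPD by 0.60 (SE 0.18, edgeR adjusted p = 0.0303). The call of CHAC2 was lost without shTRIM21 replicate 2 or 3 or shControl replicate 1 or 2 (-0.39 to -0.30), and that of CEBPD without shTRIM21 replicate 1 or 3 or shControl replicate 2 (-0.52 to -0.43). EIF4EBP2 rose by 0.27 (SE 0.057, edgeR adjusted p = 0.00352): it was at 130.4, 132.6 and 146.9 CPM in shTRIM21 and at 115.4, 111.7 and 112.7 CPM in shControl, the opposite side from EIF4EBP1. PPP1R15B, the constitutive relative of PPP1R15A, was at 0.11 on the log2 scale and was not called, nor were TRIB1 (-0.031), TRIB2 (-0.12), CEBPA (0.061) and EIF4EBP3 (-0.26). CEBPE was listed at 0 in all libraries.

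A list of other bZIP factors, written as possible partners of ATF4, ATF3 or C/EBP proteins, held 26 tested genes. Whether each of them pairs with these proteins was not tested. Of the 26, 7 were lower and 3 higher, with a median of -0.072. With library sizes alone the balance turned to 1 lower and 4 higher, with a median of 0.14 where that of all genes was 0.22. FOSL1, an AP-1 subunit gene, fell by 0.50 on the log2 scale (SE 0.062, edgeR adjusted p = 5.50e-05), from 165.4 ± 13.6 CPM in shControl to 117.1 ± 4.60 CPM (SD, n = 3 each). ATF1, a CREB family gene, fell by 0.61 (SE 0.088, edgeR adjusted p = 0.000226) and MAFF, a small MAF gene, by 0.76 (SE 0.12, edgeR adjusted p = 0.000512). The higher genes were DBP (0.35, edgeR adjusted p = 0.00963) and TEF (0.29, edgeR adjusted p = 0.0149), which are circadian output factors, and BATF2 (0.86, edgeR adjusted p = 0.0313), which stood at only 2.29 CPM in shTRIM21. The call of TEF was lost without shTRIM21 replicate 2 or shControl replicate 2 or 3 (0.23 to 0.27), and that of BATF2 without any 1 shTRIM21 library or shControl replicate 2 (0.61 to 0.89).

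Known ATF4 targets outside the 10 genes were mostly lower. Over the 4 target lists together, 49 genes were tested, 35 were lower, 2 higher and 12 not called, with a median log2 fold change of -0.36. With library sizes alone 4 of them were lower and 1 higher, with a median of -0.15 where that of all genes was 0.22. Amino acid transporters had 9 of 10 lower and 0 higher (edgeR; 0 also with DESeq2, with limma-voom and at an unadjusted p under 0.05) and a median of -0.45. SLC7A11, the cystine importer that feeds glutathione synthesis, was at 32.4, 29.2 and 27.6 CPM in shTRIM21 and at 59.8, 72.6 and 64.7 CPM in shControl. It fell by 1.14 on the log2 scale (SE 0.080, edgeR adjusted p = 1.66e-07), next to the fall of CHAC1 on the other side of glutathione turnover. The leucine importer gene SLC7A5 and the arginine importer gene SLC7A1 fell by 0.51 each (SE 0.063 and 0.056, edgeR adjusted p = 4.76e-05 and 1.64e-05).

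Aminoacyl-tRNA synthetases and exportin-t had 11 of 13 lower and 0 higher (edgeR; 0 also with DESeq2, with limma-voom and at an unadjusted p under 0.05), with a median of -0.28. CARS1 fell by 0.57 on the log2 scale (SE 0.063, edgeR adjusted p = 1.59e-05) and YARS1 by 0.50 (SE 0.057, edgeR adjusted p = 2.34e-05), beside MARS1 above. The 2 genes of this list that were not called were EPRS1 (-0.03) and LARS1 (0.10). For amino acid synthesis and one-carbon enzymes the count was 9 of 14 lower and 1 higher, with a median of -0.27. The serine pathway genes PSAT1 and PHGDH fell by 0.71 and 0.45 (SE 0.062 and 0.054, edgeR adjusted p = 1.89e-06 and 4.19e-05) and ASNS, asparagine synthetase, by 0.54 (SE 0.063, edgeR adjusted p = 2.80e-05). ALDH18A1, of proline synthesis, rose by 0.19 (SE 0.056, edgeR adjusted p = 0.0249), a call lost without shTRIM21 replicate 2 or 3 or shControl replicate 1 or 2 (0.16 to 0.19).

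Signalling and growth outputs had 6 of 12 lower and 1 higher, with a median of -0.31. ATG12, an autophagy conjugation gene, was at 69.3, 71.5 and 66.0 CPM in shTRIM21 and 121.7, 132.0 and 136.5 CPM in shControl, and fell by 0.91 on the log2 scale (SE 0.059, edgeR adjusted p = 8.97e-08). CDKN1A, the p21 cell cycle inhibitor gene, and GDF15, a secreted stress cytokine gene, fell by 0.39 each (SE 0.055 and 0.067, edgeR adjusted p = 0.000180 and 0.000855). KLHL24 rose by 0.30 (SE 0.099, edgeR adjusted p = 0.0426), a call lost without any library but shControl replicate 1 (0.22 to 0.34). DDIT4, the mTORC1 inhibitor gene REDD1, named after its values were seen, was at 103.4 ± 6.21 CPM in shTRIM21 and 102.0 ± 12.9 CPM in shControl and was not called (0.02).

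**Figure D5:**
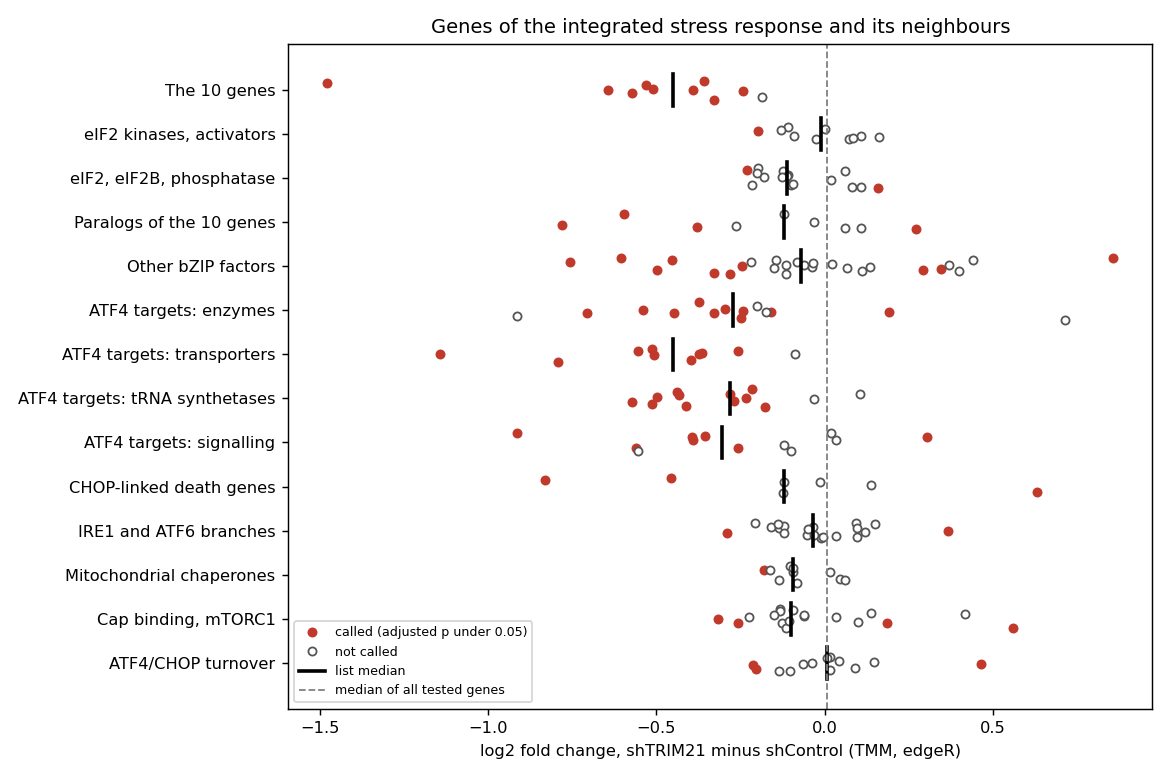
Log2 fold change (shTRIM21 minus shControl, TMM scaling) of each tested gene in 14 lists, filled where called at an adjusted p under 0.05, with the median of each list as a bar and the median of all tested genes as a dashed line. The 10 genes and the 4 ATF4 target lists have medians from -0.27 to -0.45, and every other list lies between -0.12 and 0.0076.

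Genes linked to death downstream of CHOP gave 2 lower and 1 higher of 7, with a median of -0.12. PMAIP1, the NOXA gene, fell by 0.83 on the log2 scale (SE 0.076, edgeR adjusted p = 2.61e-06) and CASP4 by 0.46 (SE 0.11, edgeR adjusted p = 0.00819). ERO1A, an oxidase of the endoplasmic reticulum, rose by 0.63 (SE 0.062, edgeR adjusted p = 5.19e-06). The part of regulators other than ATF4 and CHOP in this list and in the ATF4 target lists was not tested. The IRE1 and ATF6 branches of the unfolded protein response had 1 lower and 1 higher of 20 and a median of -0.034. HERPUD1 fell by 0.29 (SE 0.057, edgeR adjusted p = 0.00238) and the chaperone gene HSP90B1 rose by 0.36 (SE 0.057, edgeR adjusted p = 0.000391), to 1049 ± 17.9 CPM from 814.8 ± 33.4 CPM (SD, n = 3 each). XBP1 (-0.0060) and the BiP gene HSPA5 (0.10), both named after their values were seen, were not called.

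Of 10 mitochondrial proteases and chaperones, 1 was lower and 0 higher (edgeR; 0 also with DESeq2, with limma-voom and at an unadjusted p under 0.05), with a median of -0.095. The 1 was LONP1, which fell by 0.18 on the log2 scale (SE 0.056, edgeR adjusted p = 0.0332) but stood at 0.023 with library sizes alone (median of all genes 0.22) and lost its call with upper-quartile factors and without any library but shControl replicate 1 (-0.22 to -0.14). Cap-binding and mTORC1 genes, the machinery that 4E-BP1 acts on, had 2 lower and 2 higher of 18. RHEB, the mTORC1 activator gene, and EIF4E2, a cap-binding paralog of eIF4E, fell by 0.32 and 0.26 (SE 0.059 each, edgeR adjusted p = 0.00154 and 0.00637). EIF4E3 rose by 0.56 (SE 0.11, edgeR adjusted p = 0.00307) and EIF4A2 by 0.18 (SE 0.057, edgeR adjusted p = 0.0336), the latter not without replicate 1 or 2 of either group (0.15 to 0.17). Among 13 genes listed under the turnover of ATF4 and CHOP proteins, 2 were lower and 1 higher. KEAP1, known for the turnover of NRF2 rather than of ATF4 or CHOP, fell by 0.20 (SE 0.053, edgeR adjusted p = 0.0134). With library sizes alone KEAP1 stood at 0.012 (median of all genes 0.22). The ubiquitin ligase gene SIAH2 fell by 0.21 (SE 0.070, edgeR adjusted p = 0.0437). EGLN3, a prolyl hydroxylase gene, rose by 0.46 (SE 0.14, edgeR adjusted p = 0.0294). These 3 calls were lost in some of the fits without a library: KEAP1 without shTRIM21 replicate 2 or shControl replicate 3 (-0.22 to -0.18), SIAH2 without any library but shControl replicate 1 (-0.24 to -0.14), with upper-quartile factors and with limma-voom, and EGLN3 without replicate 1 or 2 of either group (0.38 to 0.46).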

How the data were processed

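Each of the 6 tables deposited by the authors held whole-number read counts for 28278 gene symbols, not normalized. The submitters' processing notes name TopHat2, the build hg38, edgeR 3.38.1 and limma 3.52.2 but not what each was used for. Which program counted reads, with which annotation and whether by strand, is not given in the sources used here, so reads of overlapping genes may be counted together. Of the rows, 7790 were at 0 everywhere, and 37 ribosomal RNA rows stayed in.

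Counts were analysed in R 4.3.3 with edgeR 4.0.16: filterByExpr (minimum count 10, total 15), TMM factors and the quasi-likelihood F test over the 6 libraries, with Benjamini-Hochberg adjustment over 15131 genes and a threshold of 0.05. The SE is the log2 fold change over the square root of F. CPM uses TMM-scaled library sizes, and SDs are over 3 libraries. Total counts from 33499827 to 44466137 per library set the counting precision. Groups and replicate numbers came from sample titles. No 2 libraries of a group held the same counts within counting noise (chi-square per degree of freedom from 15.1 to 336), which does not show that they came from separate cultures. Ribosomal RNA rows were kept in this comparison, and the part of their differing shares in these values was not tested. Alternatives were RLE, upper-quartile and no scaling factors, leaving out ribosomal RNA rows, and other filters. Further ones were DESeq2 1.42.0, limma-voom 3.58.1, robust estimation, a replicate block and leaving out libraries.

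The members and lists were chosen with earlier results of these data known. Named were the 10 genes, TRIM21, up to 3 called genes per list and direction with the smallest p-values, all tested eIF2 kinase genes and paralogs as needed, and the 5 genes nearest to ATF4 in profile. Positions and promoter windows are from RefSeq (GRCh38.p14), exon lengths from GENCODE release 29.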

Additional observations from a re-analysis of the deposited data

How the results depend on the processing

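Over 17 alternatives, the fold changes of the 10 genes kept direction and call in 155 of 170 cases, lost the call in 13, gained it in 1 and reversed in 1. The 1 reversal was CEBPB, at 0.37 without shControl replicate 2 and -0.51 without shControl replicate 3, the ends of its range when 1 library was left out. With library sizes alone 1 of the 10 genes was lower (median -0.24), 4 ATF4 target genes were lower and 1 higher, and 138 of all genes were lower, with EIF2AK2 at 0.0078, LONP1 at 0.023 and KEAP1 at 0.012. That setting counts ribosomal RNA reads, whose share differed between libraries, and the cause of each single change was not tested. Leaving out 1 replicate at a time, ATF4 target genes called higher ranged from 0 to 1, the median of the 10 genes from -0.49 to -0.41, all genes lower from 1003 to 1398 and all genes higher from 841 to 1211, the lowest of both without shTRIM21 replicate 2. With shControl replicates 1 and 3 left out, an alternative chosen after seeing the data that leaves 1 control assumed to vary like the other group, 1104 genes were lower and 854 higher, and 0 ATF4 target genes were higher. Same-numbered libraries did not deviate together over all tested genes (correlations -0.013, 0.0057 and -0.080). These values do not tell whether such libraries shared an infection, a culture or a day. With the replicate block 2905 genes were called and the median of the 10 genes was -0.45, and no call among the 10 changed. Of 1002 values of the other named genes, 906 kept direction and call, 93 lost the call and 3 reversed, all 3 with library sizes alone, where the median of all genes moved to 0.22 and these 3 stayed below it. The fewest counts of any of the 10 genes in a library were 291, for CHAC1.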
